A study of Rattus norvegicus with 44 samples.

Results

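The genes described here are the cytosolic ribosomal protein genes of the rat, followed through cortical infarction. Members were all gene symbols of the study's normalized expression table that are written as Rpl or Rps with a number, or as Rplp0 to Rplp2, with the S6 kinase genes left out. The rule took 30 of the 9763 symbols in that table, namely 19 genes of the large subunit and 11 of the small subunit. A further 49 ribosomal protein genes had probes on the array but were not in that table. Low variation between arrays was one reason for a probe to be left out of the table, and 66 of the 67 probes of these genes were below the minimum variation here. Of the 30 members, 29 passed the filters as applied here and were tested. The one that did not was Rpl29, whose probe in the table had a coefficient of variation of 2.49% against a minimum of 2.5%. Because the filter favours genes that differ between groups, counts over the 29 tested members describe those members and are not counts over ribosomal protein genes in general.

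Adult Sprague-Dawley rats underwent permanent occlusion of the right middle cerebral artery by ligation (pMCAO), which leaves an infarct in the cortex. Both common carotid arteries were also closed for a limited time. The study states that flow to the contralateral cortex falls in this model, so that this tissue is not fully healthy. Cortex was taken 24 h or 3 d later from the infarct core, from the periinfarct area around it and from the contralateral hemisphere. Sham-operated rats had the same surgery without occlusion and gave ipsilateral and contralateral cortex at both times, and healthy unoperated rats gave ipsilateral cortex. Each of the 11 groups had 4 one-colour arrays, and each array carried RNA pooled from 3 rats. Areas of one time and surgery came from the same rats, so the 20 pools gave 44 arrays. The animals differed between 24 h and 3 d, and a pool hides the spread between its rats.

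Ribosomal proteins are the structural proteins of the ribosome, and each is present in a single copy per particle apart from the stalk proteins. They are made in roughly balanced amounts, are imported into the nucleolus, and join ribosomal RNA there before the subunits leave for the cytoplasm. In vertebrates their mRNAs usually begin with a cytosine in a run of pyrimidines, the 5′ terminal oligopyrimidine (TOP) tract, through which mTORC1 controls their translation according to growth signals. Dividing and activated cells are rich in ribosomes, whereas mature neurons hold large numbers of them mainly in the cell body.

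The start-site sequences of the members were searched for C at the start and for a pyrimidine run there. RefSeq promoters on the rat build GRCr8 were found for 25 of the 30 members. Each member was taken by its first listed promoter, whereas the shares over all promoters count every promoter listed. In 17 of the 25 (68%) the annotated first base was C, against 24.1% of all 33469 promoters in the same table. The start lay inside a run of at least 8 C or T bases in 15 of 25 members (60%), against 4.43% of all promoters. Such a run can reach back before the start as well as after it, so this is not a count of TOP tracts. The windows printed here hold 15 bases before and 15 bases from the annotated start, and the capitals mark the pyrimidine run that holds the start. Rps2 is shown for its long run, which ends at the annotated first base and so lies before the rest of the annotated mRNA. Rpl22 and its paralog Rpl22l1 are shown because one has a run and the other has none. Rpl10 and Rplp0 are shown because they were called in the 3 d core. Rpl7l1 is shown as the member with the lowest change in the 3 d core, and it has no run.
Rps2, chr10:14251833-14251862, plus strand: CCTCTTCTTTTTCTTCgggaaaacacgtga
Rpl22, chr5:168117946-168117975, plus strand: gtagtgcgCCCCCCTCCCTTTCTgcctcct
Rpl22l1, chr2:113683181-113683210, plus strand: gctccgtggatatccggttccgagttgcgc
Rpl10, chrX:157205835-157205864, plus strand: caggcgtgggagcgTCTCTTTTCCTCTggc
Rplp0, chr12:46718376-46718405, minus strand: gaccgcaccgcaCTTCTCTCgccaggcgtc
Rpl7l1, chr9:21695703-21695732, plus strand: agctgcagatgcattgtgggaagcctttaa

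Rps12, Rps13, Rps28 and Rpl18 also had an annotated first base other than C or T. They thus had no run that holds the start, so its absence was not limited to the paralogs. Rps12 and Rps28 were called higher in the 3 d core, so its absence was not limited to genes with small changes either. Whether the run goes with the change was not tested. Runs do lie after the start in the Rps13 and Rps28 windows, so the measure depends on the annotated first base. Of the other letters searched in the 300 bases around the start, CCGGAAG on either strand was in 8 of 25 members (32%) against 8.75% of all promoters. TATAAA was in 6 (24%) against 14.2%, and AAGATGGC was in 1 (4%) against 3.17%. CCGGAAG and AAGATGGC can share the letters AAG, and a match describes the sequence without showing that a factor binds there.

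The share of spots well above background ran from 61.4% to 76.9% over the arrays, and saturation was not marked on any spot. Values are log2 of quantile-normalized signal, and the levels of different probes cannot be compared with each other. A gene is called higher when limma gave a Benjamini-Hochberg adjusted p below 0.05 over all 30538 tested probes together with at least a 2-fold change, and "past the adjusted p" means the first condition alone. The comparisons with healthy cortex all use the same 4 healthy arrays, so they are not independent of each other. In tissue homogenates, fewer cells of a type and less RNA per cell cannot be told apart. Neuron markers fell and microglial, macrophage and cell division genes rose in the same ischemic arrays, as given further on, and their part in the changes of the ribosomal protein genes was not tested.

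The ribosomal protein genes lay higher in the ischemic areas than in healthy cortex at both times, most of all in the core at 3 d. For each array the median deviation of the 29 tested members from their healthy means was taken. It was -0.02 ± 0.04 in healthy cortex (log2, mean ± SD, n = 4). At 24 h it was 0.50 ± 0.11 in the core and 0.63 ± 0.06 around it, and at 3 d it was 0.95 ± 0.29 in the core and 0.58 ± 0.25 around it. All 16 ischemic arrays lay above all healthy arrays. The highest sham array had 0.40, above periinfarct pool 11 at 3 d, with 0.20, and the lowest 24 h core array, with 0.39. Core pool 11 at 3 d was also the lowest of its group, with 0.53, and was on the array with the lowest share of spots well above background (61.4%). The other 3 periinfarct pools at 3 d lay between 0.68 and 0.74.

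**Figure D1:**
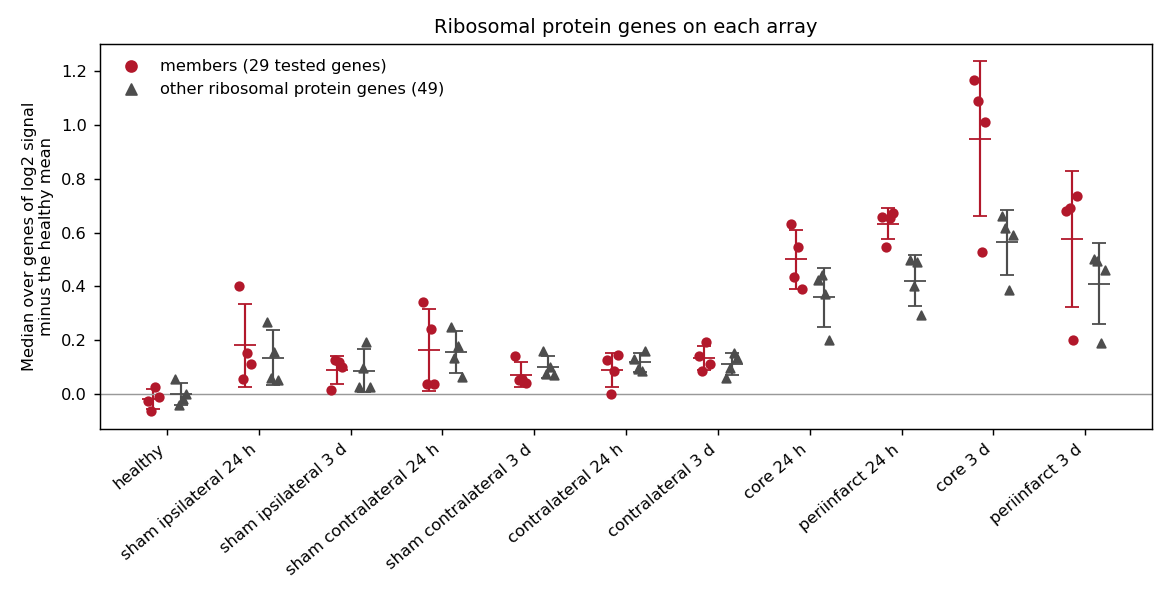
Median log2 deviation from the healthy mean, per array, for the 29 tested members (circles) and the 49 other ribosomal protein genes (triangles). The x axis gives the 11 groups with 4 arrays each and the y axis is in log2 units. The 3 d core reaches 1.17 for the members, and periinfarct pool 11 at 3 d, at 0.20, lies among the control arrays.

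In the core at 3 d, 11 of 29 members were called higher and none lower, while 12.2% of all tested probes were called higher and 12.0% lower. Past the adjusted p alone, 20 of 29 were higher, against 18.7% of all probes. The median change of the members was 0.97 on the log2 scale, with a range from -0.08 for Rpl7l1 to 1.46 for Rplp0, whereas the median over all tested probes was -0.21. The 11 called genes were Rplp0, Rpl22, Rps28, Rpl39, Rpl36a, Rpl10, Rpl10a, Rps12, Rps20, Rps15 and Rpl27, with changes between 1.02 and 1.46. Brighter probes of Rpl10, Rps12 and Rps15, which failed the variation filter, changed by 0.83, 0.88 and 0.77, each under 2-fold. Arrays of the 2 groups did not overlap for 18 members, all higher in core, against 15.7% of all probes. Both subunits took part, with 11 of 18 large-subunit genes and 9 of 11 small-subunit genes past the adjusted p and medians of 0.94 and 0.97.

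At 24 h the changes were smaller. In the core no member was called and 14 of 29 were past the adjusted p, all higher, while 6.05% of all probes were called higher and 12.4% were past the adjusted p in that direction. The median change was 0.45, with 26 members above 0, beside -0.08 over all probes. The largest changes past the adjusted p belonged to Rps15 (0.94, SE 0.20), Rps20 (0.91, SE 0.13) and Rpl22 (0.80, SE 0.17). In the periinfarct area Rpl22 and Rpl34 were called higher, 2 of 29 beside 6.78% of all probes, and 20 were past the adjusted p beside 13.4%. The median there was 0.60 against -0.06 over all probes, and all 29 changes were above 0. The Rpl22 and Rpl34 calls were both lost with the array slide as a block or against 24 h sham cortex, and Rpl34 is taken up with the slides further on.

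In the periinfarct area at 3 d no member was called and 15 of 29 were past the adjusted p, all higher, while 5.34% of all probes were called higher and 9.17% were past the adjusted p. The median change was 0.54 beside -0.10 over all probes. Arrays did not overlap for 9 members, all higher, beside 5.91% of all probes. The group was uneven, and pool 11 lay close to healthy cortex. Without that array Rplp0 and Rps20 were called, and 17 members were past the adjusted p. When only the 8 arrays of the comparison were fitted, so that the spread was estimated within these groups, no member was past the adjusted p.

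**Figure D2:**
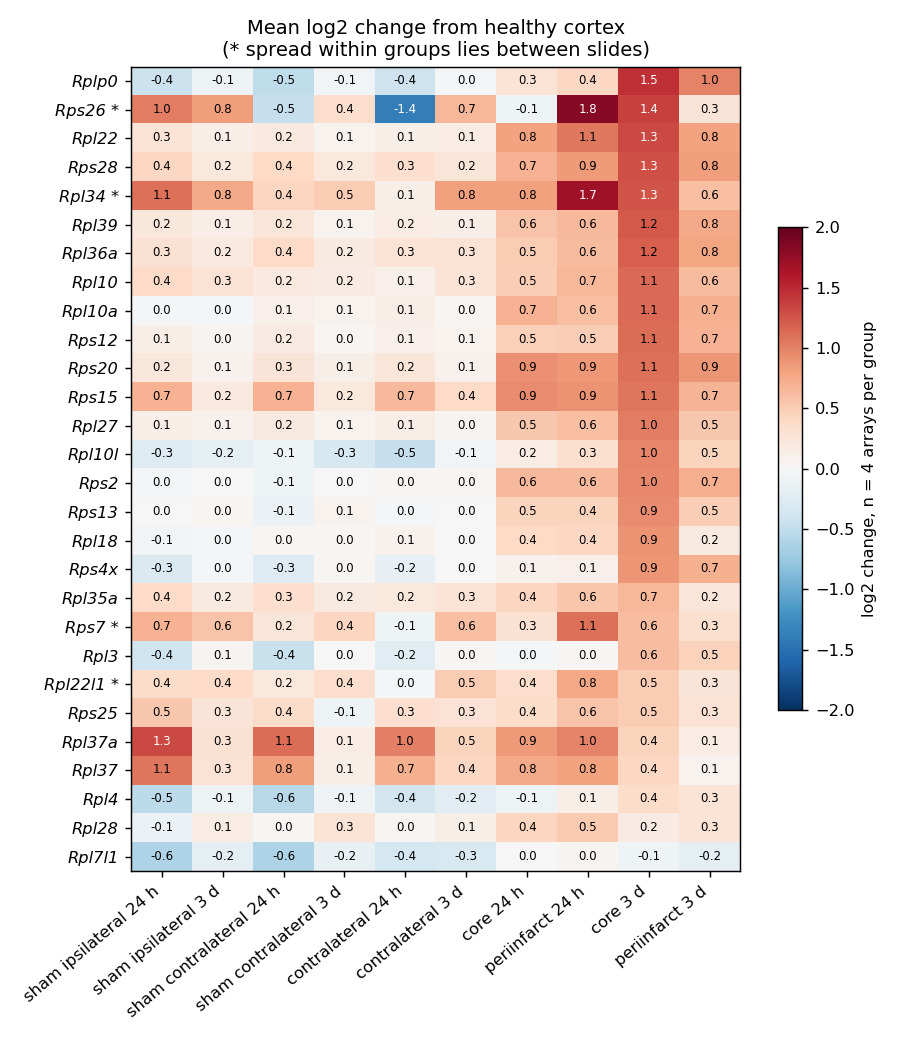
Mean log2 difference from healthy cortex (n = 4 arrays per group) of 28 of the 29 tested members (rows, in order of the 3 d core) in the other 10 groups (columns), coloured from -2 in blue to 2 in red. The 3 d core column runs from 1.46 for Rplp0 to -0.08 for Rpl7l1, and Rpl37 and Rpl37a are also red in the 24 h sham columns.

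Rplp0 encodes the anchor protein of the stalk, the flexible arm of the large subunit that recruits elongation factors. Its log2 signal was 8.81, 8.83, 9.02 and 9.07 in healthy cortex and 8.96, 9.05, 9.38 and 9.42 in core at 24 h. In core at 3 d it was 10.85, 10.60, 10.20 and 9.92. Every 3 d core array thus lay above every healthy and 24 h core array, and the change from healthy was 1.46 (SE 0.25, 2.75-fold, limma adjusted p = 9.7e-06). In periinfarct at 3 d the values were 10.21, 10.39, 8.79 and 10.33, where 3 pools were high and pool 11 lay below all healthy arrays. The change there was 1.00 (SE 0.25, limma adjusted p = 0.0051), just short of 2-fold. At 24 h the changes from healthy of 0.27 and 0.41 did not pass the test. In 24 h sham ipsilateral cortex Rplp0 read 8.34 to 8.80, below all healthy and all 24 h core arrays. Rplp0 was the one member called between core at 3 d and core at 24 h, with a difference of 1.19 (SE 0.25).

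**Figure D3:**
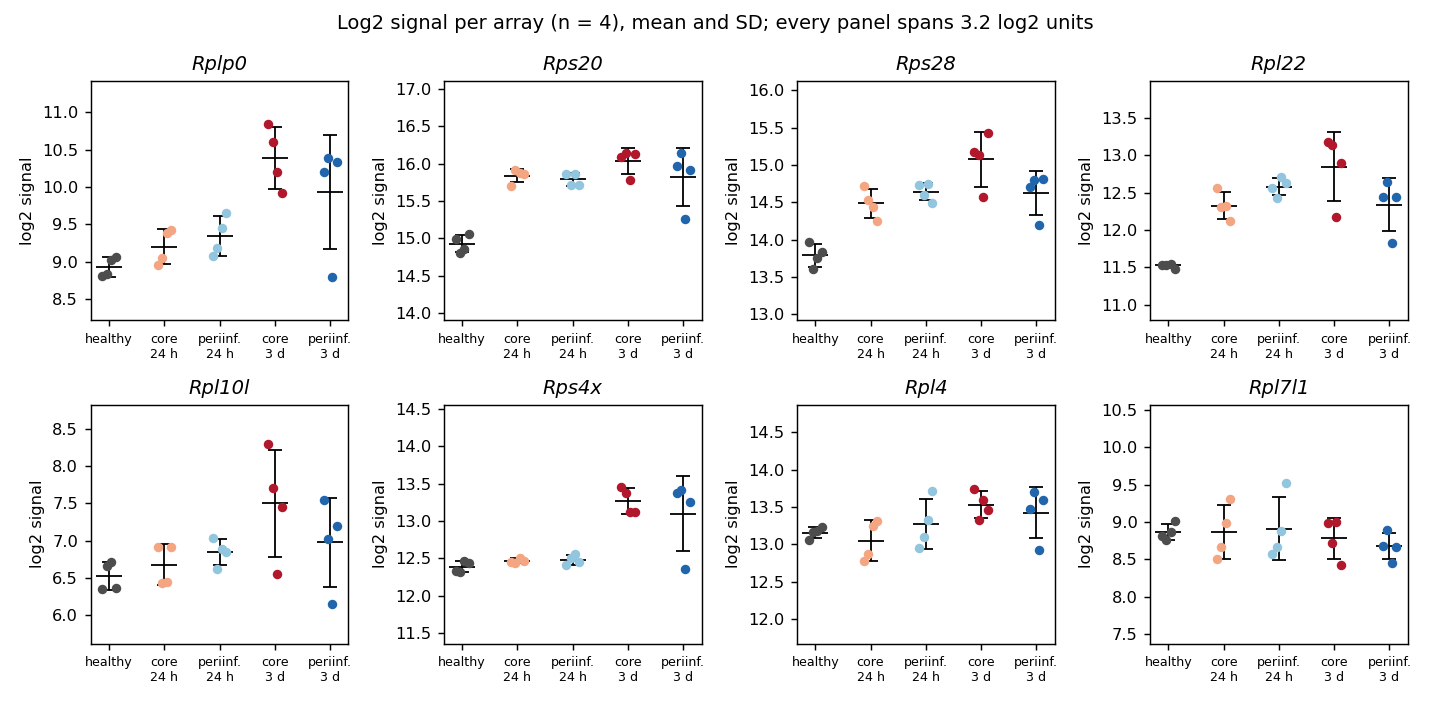
Log2 signal of 8 members on each array of healthy, core and periinfarct cortex, with the mean and SD of each group (n = 4). Every panel spans 3.2 log2 units. Rplp0 and Rps4x separate 3 d from 24 h in the core, while in periinfarct cortex pool 11 at 3 d lies below the 24 h arrays for both, and Rps20, Rps28 and Rpl22 are already higher at 24 h, and Rpl7l1 stays around its healthy level.

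Rps20, a protein of the head of the small subunit, had already moved by 24 h. Its log2 signal was 15.00, 14.81, 14.86 and 15.06 in healthy cortex. It was 15.71, 15.91, 15.88 and 15.87 in core at 24 h and 16.10, 16.14, 15.78 and 16.12 in core at 3 d. No ischemic array overlapped the healthy ones, with 15.26 in periinfarct pool 11 at 3 d the closest. The changes were 0.91 in core at 24 h (SE 0.13, limma adjusted p = 2.27e-06) and 1.11 in core at 3 d (SE 0.13, limma adjusted p = 1.61e-08). The second tested Rps20 probe changed by 0.79 and 1.40 in these comparisons.

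Rps28, a small protein near the mRNA exit of the small subunit, followed the same course. Healthy arrays read 13.97, 13.61, 13.75 and 13.83, and 24 h core arrays 14.72, 14.53, 14.44 and 14.25. At 3 d the core arrays read 15.17, 15.13, 14.57 and 15.43. The groups did not overlap at either time, and the changes were 0.70 (SE 0.16) and 1.29 (SE 0.16, limma adjusted p = 6.81e-08). The periinfarct changes were 0.85 at 24 h and 0.84 at 3 d, both past the adjusted p. A brighter Rps28 probe that failed the variation filter changed by 0.74 in the 24 h core and 1.07 in the 3 d core.

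Rps4x, the X-linked gene of a small-subunit protein, was among the members with the smallest change from healthy in the 24 h core. Its change from healthy was larger at 3 d. It read 12.33, 12.32, 12.46 and 12.44 in healthy cortex and 12.45, 12.44, 12.51 and 12.47 in core at 24 h. At 3 d it read 13.46, 13.37, 13.13 and 13.13 in core and 13.37, 13.41, 12.36 and 13.25 in periinfarct, where pool 11 was again at the healthy level. The change from healthy was 0.08 (SE 0.15) in the 24 h core and 0.88 (SE 0.15, limma adjusted p = 1.36e-05) in the 3 d core. In 24 h sham ipsilateral cortex Rps4x read 12.00 to 12.20, below all healthy and all 24 h core arrays. Rps4x was also the single member past the adjusted p between the periinfarct areas of 3 d and 24 h, with a difference of 0.62 (SE 0.15, limma adjusted p = 0.0054).

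Rpl3, which helps form the peptidyl transferase region of the large subunit, and Rpl4, which lines the nascent peptide tunnel, also had small changes from healthy at 24 h. Rpl3 read 12.06, 12.10, 12.36 and 12.16 in healthy cortex, 12.05, 11.93, 12.28 and 12.26 in core at 24 h, and 13.10, 12.79, 12.95 and 12.33 in core at 3 d. One 3 d core array lay inside the healthy range, and the change was -0.04 (SE 0.20) at 24 h and 0.62 (SE 0.20, limma adjusted p = 0.0088) at 3 d. Rpl4 read 13.05, 13.16, 13.18 and 13.23 in healthy cortex, 12.77, 12.87, 13.25 and 13.32 in core at 24 h, and 13.74, 13.33, 13.60 and 13.46 in core at 3 d. Its 3 d core arrays all lay above the healthy arrays, yet its change of 0.37 (SE 0.20) did not pass the adjusted p. The 24 h sham ipsilateral means were lower than healthy, 11.77 against 12.17 for Rpl3 and 12.64 against 13.16 for Rpl4. The 24 h core means were 12.13 and 13.05, and sham and core arrays overlapped for both genes.

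Among the paralog pairs, Rpl22 and Rpl22l1 encode a large-subunit RNA-binding protein and its close relative. Rpl22 read 11.54, 11.53, 11.55 and 11.48 in healthy cortex and 12.56, 12.43, 12.70 and 12.63 in periinfarct at 24 h. It read 12.56, 12.31, 12.31 and 12.12 in core at 24 h and 13.18, 13.13, 12.18 and 12.89 in core at 3 d. Healthy arrays spanned less than any ischemic group and overlapped none of them. The change was 1.06 in periinfarct at 24 h (SE 0.17, 2.08-fold, limma adjusted p = 1.48e-05) and 1.32 in core at 3 d (SE 0.17, limma adjusted p = 1.11e-07). With the slide as a block the 24 h periinfarct change was 0.92 (limma adjusted p = 6.74e-04). The differences for Rpl22l1 were 0.35 and 0.78 in core and periinfarct at 24 h and 0.51 and 0.26 at 3 d, of which none passed the adjusted p.

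Rpl10, a late-joining large-subunit protein at the ribosome's catalytic core, and Rpl10l, its retrogene copy known from the testis, form the other pair. Rpl10 read 12.49, 12.89, 13.01 and 12.31 in healthy cortex and 14.12, 14.11, 13.11 and 13.90 in core at 3 d, a change of 1.13 (SE 0.19, limma adjusted p = 7.78e-06) with no overlap. A brighter Rpl10 probe that failed the variation filter changed by 0.83 there, and by 0.24 in the 24 h core where the tested probe changed by 0.49. Rpl10l read 6.35, 6.66, 6.72 and 6.37 in healthy cortex and 8.29, 7.70, 6.56 and 7.45 in core at 3 d. Pool 11 lay within the healthy range and the change was 0.97 (SE 0.26, limma adjusted p = 0.0026). Processed copies of ribosomal protein genes are frequent in mammalian genomes, and how far the probes tell a gene from its copies is not given in the sources used here.

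Rpl7l1, a relative of Rpl7 that acts in assembly of the large subunit, did not pass the test in any of the 4 comparisons. It read 8.81, 8.76, 8.86 and 9.01 in healthy cortex, 8.51, 8.66, 8.98 and 9.31 in core at 24 h, and 8.98, 8.72, 9.00 and 8.42 in core at 3 d. Its changes from healthy ran from -0.19 in periinfarct at 3 d to 0.05 in periinfarct at 24 h, with an SE of 0.25. In 24 h sham ipsilateral cortex Rpl7l1 read 7.73 to 8.74, below all healthy arrays and overlapping the 24 h core.

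Rpl37, Rpl37a and Rps15 had higher means in 24 h sham-operated cortex as well. They were measured with probes designed on expressed sequence tags, as was Rps25. Rpl22, Rpl35a and Rpl36a, whose probes were designed on reference transcripts, were higher in 24 h sham cortex too. Rpl37a read 7.70, 7.47, 6.86 and 7.25 in healthy cortex, 8.36, 8.48, 7.92 and 7.93 in core at 24 h and 9.19, 8.68, 8.74 and 7.95 in sham ipsilateral cortex at 24 h. Rpl37 read 7.39, 7.38, 7.08 and 7.13 in healthy cortex, 8.20, 8.20, 7.89 and 7.70 in core at 24 h and 8.78, 7.94, 8.50 and 8.03 in sham cortex at 24 h. For both genes the sham arrays lay above all healthy arrays and reached higher than the ischemic ones. Against sham cortex of the same time, the periinfarct changes at 24 h of 1.00 for Rpl37a and 0.80 for Rpl37 became -0.32 and -0.27. Rps15 read 8.38, 8.02, 7.87 and 8.16 in healthy cortex, 9.17, 9.32, 8.90 and 8.79 in core at 24 h and 9.24, 8.75, 8.87 and 8.37 in sham cortex at 24 h. A brighter Rps15 probe that failed the variation filter changed by 0.31 in the 24 h core, where the tested probe changed by 0.94. In the 3 d core it changed by 0.77, under 2-fold, where the tested probe was called with 1.06. That call was lost without core pool 12 (0.93) or healthy pool 19 (0.99), and against sham cortex of the same time (0.87).

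Rpl28, a small protein of the large subunit, was tested by a dim probe. It read 4.59, 4.62, 4.70 and 4.76 in healthy cortex, 4.77, 5.10, 5.36 and 5.18 in core at 24 h, and 4.85, 4.98, 4.62 and 4.90 in core at 3 d. Its change in the 3 d core was 0.17 (SE 0.19), whereas the bright Rpl28 probe outside the filter changed by 0.71. In all, 8 members were tested by a probe that was not their brightest, namely Rpl10, Rpl28, Rpl35a, Rps12, Rps15, Rps25, Rps28 and Rps7, since the filter dropped the brighter one.

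For 4 members the spread within groups lay almost wholly between the array slides, each of which carried 4 arrays from more than 1 group. The slide accounted for 98.5% of the within-group variance of Rps7, 96.0% of Rpl34, 95.0% of Rpl22l1 and 94.3% of Rps26, whereas the median over all tested probes was 41.6% and the 90th percentile 71.6%. Rpl34, a large-subunit protein, had slide means of 10.20, 10.45, 10.99 and 11.23 on slides 2, 4, 7 and 6, and 11.63 to 12.85 on the other 7. Within groups, the deviations of the 4 genes correlated with each other between 0.896 and 0.979 over the 44 arrays, which share these slides. What the slides differed in was not tested.

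Rpl34 read 10.00, 11.93, 12.18 and 9.93 in healthy cortex, and the low pair of arrays was on slides 2 and 4. In periinfarct at 24 h it read 12.61, 12.49, 13.00 and 12.75, all above healthy, a change of 1.70 (SE 0.62, limma adjusted p = 0.0318). With the slide as a block the change was 0.70 (limma adjusted p = 0.0077), which passed the adjusted p and no longer the 2-fold condition. The call was also lost without healthy pool 17 or 20 or without periinfarct pool 3 or 4. In core at 3 d Rpl34 read 13.21, 13.27, 10.36 and 12.22, and its change of 1.26 (SE 0.62, limma adjusted p = 0.100) became 0.96 with the block (limma adjusted p = 1.22e-04).

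Rps26, a small-subunit protein at the mRNA exit, was well above background on 34 of 44 arrays. It read 2.27, 6.39, 6.33 and 2.21 in healthy cortex and 7.43, 7.11, 3.19 and 4.92 in core at 3 d. The groups overlapped widely, and the change of 1.36 (SE 1.09) did not pass the test, whereas with the slide as a block it was 1.46 (limma adjusted p = 0.0014). Rpl22l1 read 8.86, 9.91, 10.04 and 8.79 in healthy cortex and 10.63, 10.43, 9.12 and 9.47 in core at 3 d, with the same low arrays. A second Rps7 probe, dropped by the variation filter, changed by 0.11, 0.22, 0.23 and 0.24 in the 4 comparisons, where the slide-bound probe gave 0.30, 1.10, 0.62 and 0.32.

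**Figure D4:**
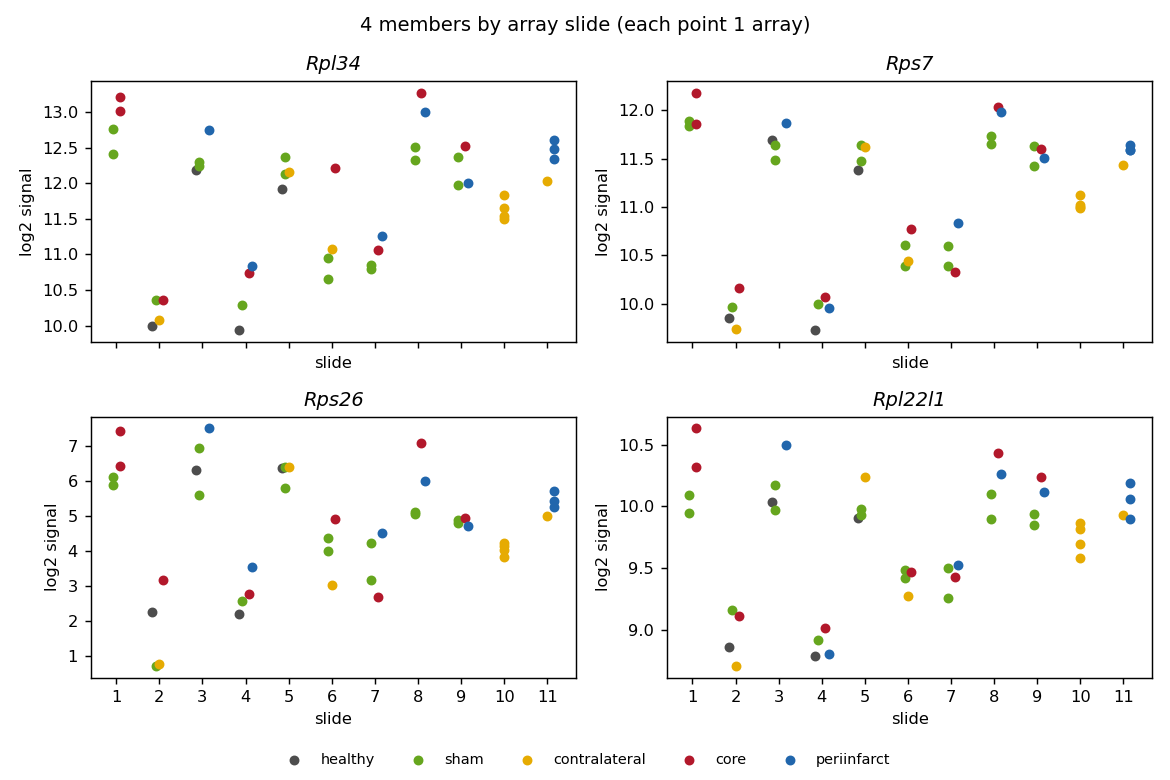
Log2 signal of Rpl34, Rps7, Rps26 and Rpl22l1 on each of the 44 arrays, set out by slide along the x axis and coloured by kind of tissue. All 4 genes are low on slides 2 and 4 whatever the tissue, as for Rpl34 with slide means of 10.20 and 10.45.

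Without these 4 genes the counts past the adjusted p were 14, 19, 20 and 15 of 25 in the 24 h core, 24 h periinfarct, 3 d core and 3 d periinfarct, and 0, 1, 11 and 0 were called. With the slide as a block, 11, 15, 23 and 14 of 29 were past the adjusted p, beside 9.22%, 12.6%, 18.7% and 7.99% of all probes. The members called were then 0, 0, 11 and 1, beside 4.75%, 6.71%, 12.0% and 4.92%. Medians under the block were 0.43, 0.50, 0.98 and 0.58.

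Between core and periinfarct cortex no difference in a member passed the test at 24 h. No member was past the adjusted p by limma or an unadjusted p below 0.05, which 12.7% of all probes passed. The median difference was -0.09, and 0.108% of all probes were past the adjusted p with core higher (0.0458% called). At 3 d no member was called and 5 of 29 were past the adjusted p, all higher in core, against 6.89% of all probes, of which 3.12% were called. They were Rpl18 (0.71, SE 0.13, limma adjusted p = 0.0019), Rpl27 (0.48), Rps13 (0.46), Rpl39 (0.47) and Rpl22 (0.51), and arrays of the 2 areas overlapped for each. This count was not stable. With the pool as a fixed block, which compares areas within pools, it was 0. That fit used only the arrays of the 2 areas at 3 d, with fewer residual degrees of freedom, and the same arrays without a block also gave 0. With the pool as a random block over all 44 arrays the count was 12. It was 1 without core pool 9 and 14 without core pool 11.

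Between the core at 3 d and the core at 24 h, 15 of 29 members were past the adjusted p, all higher at 3 d, beside 15.0% of all probes, and the median difference was 0.49. Rplp0 was called, 1 of 29 beside 8.74% of all probes. Besides Rplp0, the largest differences past the adjusted p were in Rpl10l (0.82), Rps4x (0.80) and Rpl36a (0.69). When only these 8 arrays were fitted, 3 members were past the adjusted p. In the periinfarct area only Rps4x was past it and no member was called, beside 9.31% and 3.41% of all probes, and the median difference was -0.03. Rpl34, Rpl37a, Rpl37 and Rpl35a lay lower at 3 d on every periinfarct array than at 24 h, against 7.2% of all probes, with none of the 4 past the adjusted p. The difference between the areas in this time course was past the adjusted p for Rpl18 (0.74, SE 0.18), Rpl22 (0.76, SE 0.24) and Rpl27 (0.56, SE 0.18), 3 of 29 beside 2.98% of all probes, with 0 called beside 1.88%.

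Surgery alone was examined in the sham groups. No member was past the adjusted p in sham ipsilateral cortex against healthy cortex at 24 h or 3 d by limma, and 0% of all probes were past it at both times. At an unadjusted p below 0.05 there were 10 of 29 members at 24 h beside 22.2% of all probes, and none at 3 d beside 0.809%. The median changes were 0.23 at 24 h and 0.13 at 3 d, with -0.01 over all probes at both times. They were 0.0394 and 0.0340 with the slide as a block, and 0.0585 and 0.0705 without the variation filter. At 24 h the arrays did not overlap for 6 members that were higher in sham, beside 4.72% of all probes. They were Rpl37, Rpl37a, Rps25, Rpl22, Rpl35a and Rpl36a. Nor did they overlap for 4 members that were lower in sham, namely Rpl7l1, Rpl4, Rplp0 and Rps4x, beside 9.75%. Against sham cortex of the same time, the 24 h member medians of core and periinfarct were 0.36 and 0.44. Contralateral cortex of ischemic rats compared with that of sham rats had medians of -0.04 at 24 h and 0.05 at 3 d, with no member past the adjusted p and 0 and 1 of 29 at an unadjusted p below 0.05, beside 2.23% and 1.4% of all probes.

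The 49 ribosomal protein genes outside the table were examined without the variation filter. The single probe of theirs that passed it was a dim one for Rps12l4, with a coefficient of variation of 17.4%. None was called in any comparison with healthy cortex, and 33, 37, 41 and 34 of 49 were past the adjusted p and higher in the 24 h core, 24 h periinfarct, 3 d core and 3 d periinfarct, in that order. Their medians were 0.36, 0.43, 0.54 and 0.41. The members themselves had medians of 0.39, 0.46, 0.89 and 0.48 when all 30 were taken by their brightest probe, with 13, 19, 23 and 17 past the adjusted p beside 12.5%, 13.9%, 18.8% and 8.99% of probes tested without the filter. Of the 30, 0, 2, 8 and 0 were called, beside 5.34%, 5.99%, 10.8% and 4.71%. Rpl29 then changed by 0.17, 0.19, 0.49 and 0.39, of which the 3 d values passed (limma adjusted p = 3.9e-05 and 0.0036). The table was built from probes that varied between arrays, and no test was made between these sets.

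**Figure D5:**
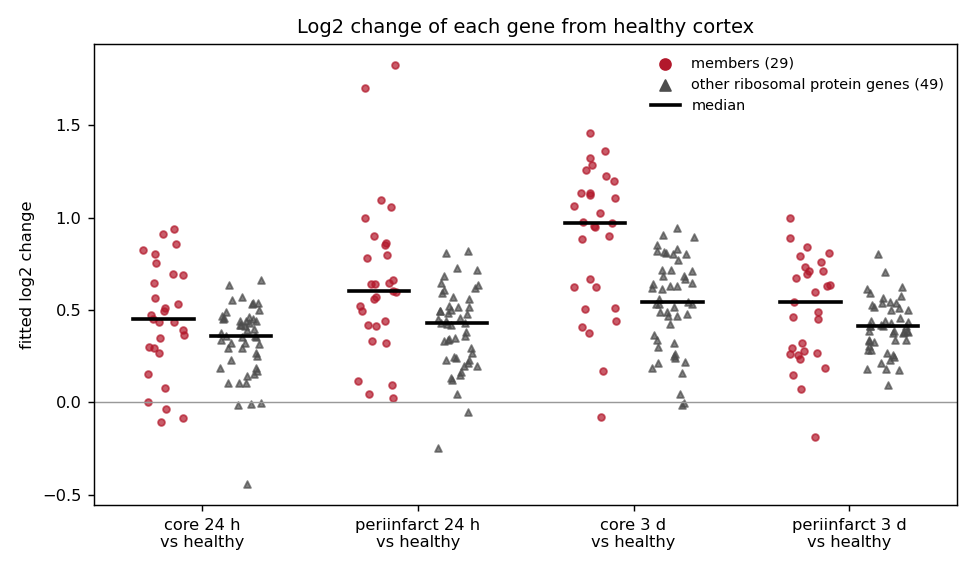
Fitted log2 change from healthy cortex of each of the 29 tested members (circles) and each of the 49 other ribosomal protein genes (triangles) in the 4 ischemic areas, with a line at each median. In the 3 d core the medians are 0.97 and 0.54, and all but 1 of the 67 probes behind the second set failed the variation filter.

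Genes that build the ribosome were also examined. Of 24 tested ribosome assembly genes, 16 were past the adjusted p and higher in the 24 h core and 16 in the 24 h periinfarct area, beside 12.4% and 13.4% of all probes, with medians of 0.62 and 0.63. At 3 d there were 10 higher and 1 lower in core and 3 higher in periinfarct, with medians of 0.34 and 0.12. All probes past the adjusted p and higher came to 18.7% and 9.17% in these areas, so the periinfarct count was near that of all probes. Of the 24, 0 were called in the 24 h core and 3 in the 24 h periinfarct area, beside 6.05% and 6.78% of all probes called higher. In the 3 d core 2 were called higher, beside 12.2% of all probes. They were Mrto4 (1.19), whose product precedes the stalk protein on the assembling large subunit, and Npm1 (1.00), the nucleolar chaperone nucleophosmin. Whether this time course differed from that of the structural proteins was not tested.

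Translation factors were mixed in the 3 d core, where 18.7% of all probes were past the adjusted p and higher and 26.8% lower. The shares of all probes called there were 12.2% higher and 12.0% lower. Of 24 tested initiation factors, 9 were higher and 2 lower past the adjusted p, with the helicase Eif4a1 (1.42), the poly(A)-binding protein Pabpc1 (1.30) and Eif4b (1.03) called. Of 11 elongation and release factors, 5 were higher and 3 lower. The kinase Eef2k (1.47), which inhibits elongation factor 2, and Eef1d (1.05) were called higher, and Eef1a2 (-1.04), the elongation factor form of neurons and muscle, Eif5a2 (-1.01) and Gspt2 (-1.01) were called lower. Of 16 tested genes of the mTORC1 and S6 kinase axis, 4 were higher and 7 lower. Those called were Myc (2.59), Eif4ebp1 (2.16), which encodes a repressor of cap-dependent initiation, and Rps6ka1 (1.90), which were higher, and Mycn (-1.39), which was lower. All 4 tested ribosome-associated genes were higher past the adjusted p, and Rpsa (1.17), a small-subunit protein, was called. Of 21 tested mitochondrial ribosomal protein genes, which serve a separate ribosome, 1 was higher and 4 lower, with a median of -0.26.

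Cell type markers shifted in the same arrays. In the 3 d core 12.2% of all probes were called higher and 12.0% lower. Past the adjusted p alone, 18.7% were higher and 26.8% lower there. All 9 tested neuron markers were above background in healthy cortex. In the 3 d core all 10 microglia and macrophage markers were called higher with a median of 2.85, led by Cd68 (6.26), and their summed signal was 12966 to 15768 in healthy cortex against 104391 to 187055. In periinfarct at 3 d that sum ran from 21824 to 128787. All 9 tested cell division genes were called higher with a median of 4.72, including Cdk1 (6.00) and Top2a (5.93). Of 9 tested neuron markers, 7 were called lower with a median of -1.26, including Camk2a (-1.84) and Snap25 (-1.74), and their summed signal fell from a range of 83903 to 87115 to one of 21784 to 55022. Among neutrophil markers 3 of 5 tested were called higher, with S100a8 at 6.02, and Ngp, Cxcr2 and Fpr1 were not above background on any healthy array. Of 7 astrocyte markers, 3 were higher and 3 lower past the adjusted p with a median of -0.63, and Gfap (3.51) was the single one called. Of 6 endothelial markers 2 were higher, with Vwf (2.16) called and a median of 0.24, and none of the 5 tested oligodendrocyte markers passed, with a median of -0.48. At 24 h the medians were 0.94 in core and 1.09 in periinfarct for microglia and macrophages, 1.67 and 1.22 for cell division, 1.11 and 0.991 for neutrophils, 0.30 and 0.30 for endothelium, and -0.52 and -0.998 for neurons. Astrocyte markers had 24 h medians of -0.68 in core, where 4 of 7 were lower past the adjusted p and 1 higher, and -0.09 in periinfarct, with 3 lower and 1 higher. Of these, 2 were called lower in each area and Gfap higher. Oligodendrocyte markers had medians of -0.61 and -0.76, with 3 of 5 lower past the adjusted p in each area and 2 called lower in periinfarct. The share of all probes lower at 24 h is not given here, so these 24 h counts of markers lower cannot be read against it. In either direction, 39.4% of all probes in core and 42.5% in periinfarct had an unadjusted p below 0.05. The part of the marker shifts in the ribosomal protein changes was not tested.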

How the data were processed

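Total RNA of 44 cortex samples, each a pool of 3 rats per the study's methods, was hybridized to Agilent whole rat genome arrays. The submitters' processing notes name Agilent Feature Extraction 10.7.3.1. The study's methods describe amplified mRNA labelling, whereas the labels' protocol describes a miRNA labelling kit, and the probe content is that of the mRNA array. The authors deposited scanner files with a background-corrected intensity and quality flags per spot, and a table of normalized log2 values, which was used to choose the members and as an alternative. Intensities as deposited were set to at least 1 after outlier spots were left out, log2 transformed and quantile normalized, and spots of a probe were averaged. Probes had to pass 3 filters with the thresholds of the study's methods, which were a signal above the 20th percentile and detection in at least 75% of the arrays of a group, and a coefficient of variation of at least 2.5%. Of 41012 probes, 30538 were tested, more than the 20395 rows of the deposited table, so the filters as applied here kept more probes than those that made it. Which step differs is not given in the sources used here. Each gene was represented by its tested probe with the highest mean.

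All 44 arrays were fitted together in limma 3.58.1 (R 4.3.3) with 1 mean per group, and p-values were adjusted by Benjamini-Hochberg over all tested probes. The number of arrays limits the precision. P-values measure the spread between arrays within groups, where each array is a different pool, and this spread includes differences between slides. Arrays of different groups from the same pool were treated as independent in this fit. Their consensus correlation was 0.22. One array lacked a value for Rps13 after outlier spots were left out, in sham contralateral cortex at 24 h. Simulated data with known changes served to test the code.

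The labels give a rat number for each array, which was taken as the number of its pool. Same-numbered pools of one time and surgery were thus taken as the same rats. Their arrays deviated together more than other pairs in core and periinfarct at 24 h (mean correlation 0.15 against -0.05) and in both sham pairs (0.30 against -0.10), and not at 3 d (-0.00 against 0.00). The pool was used as a block in alternatives. Other alternatives were the probe filters, normexp background correction, 75th percentile scaling, the deposited table, the slide as a block, sham control, only the groups compared, outlier spots kept, averaging all tested probes of a gene and leaving out each array. The count past the adjusted p alone, the slide block without the variation filter, and leaving out Rpl34, Rps7, Rps26 and Rpl22l1 were chosen after seeing the data.

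The members and lists were chosen with earlier results of these data known. Array values are given for stalk genes, paralog pairs, the 5 highest and 5 lowest members in core at 24 h and 3 d, and members called at 24 h. One member is counted and not reported by name here. From each other list, up to 3 called genes at each end in the 3 d core are named. Promoters are RefSeq's, 250 bases before to 50 after the start. Python 3.11.15 drew the figures.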

Additional observations from a re-analysis of the deposited data

Results flagged for a closer look

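Gaps in groups of 4 arrays were examined with Dixon's test at the 95% level, by which chance marks about 1 group in 20. Among the 17 members with array values, 4 of 85 group values stood apart. They were Rplp0 (8.79), Rps28 (14.19) and Rps4x (12.36) in periinfarct pool 11 at 3 d, each far below the other 3 pools, and Rps20 (15.78) in core pool 11 at 3 d.

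Of the median deviations of the members per array, 3 of 11 groups had an array that stood apart. These were periinfarct pool 11 at 3 d (0.20), periinfarct pool 2 at 24 h (0.55, with the others close together above it) and sham contralateral pool 13 at 3 d (0.14, above the others). The pool 11 arrays share a number in the labels, were taken as the same 3 rats, and were on different slides. What set them apart was not tested.

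The change from 24 h to 3 d differed between core and periinfarct past the adjusted p (limma) for Rpl18 (0.74), Rpl22 (0.76) and Rpl27 (0.56), each larger in core. With the slide as a block only Rpl18 kept an adjusted p below 0.05 among these 3 (0.84, limma adjusted p = 0.0418).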

How the results depend on the processing

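Leaving out arrays aside, 557 alternative values of the counts and medians kept within their limits and 45 did not. Without the fold minimum the counts of members higher became 14 and 20 in the 24 h core and periinfarct, 20 and 15 at 3 d, 15 for core at 3 d against 24 h, 5 for core against periinfarct at 3 d, 1 for periinfarct at 3 d against 24 h and 3 for the area by time difference. Without the variation filter, and equally without any filter, the medians were 0.46 in periinfarct at 24 h, 0.0585 in sham at 24 h and 0.0705 in sham at 3 d. With the slide as a block they were 0.50, 0.0394 and 0.0340, and the counts called were 0 in periinfarct at 24 h, 1 in periinfarct at 3 d and 2 for core at 3 d against 24 h. With that block and no variation filter those counts were again 0, 1 and 2, 7 were called in core at 3 d, and the medians were 0.31 and 0.41 in core and periinfarct at 24 h and 0.0176 and 0.0203 in sham at 24 h and 3 d. Normexp gave a median of 0.53 in periinfarct at 24 h. Against sham cortex the medians at 24 h were 0.36 and 0.44, with 0 called in periinfarct at 24 h and 1 at 3 d, and the periinfarct changes at 24 h reversed for Rpl37 (-0.27) and Rpl37a (-0.32). The deposited table gave 1 call in periinfarct at 3 d. Without the 4 slide-bound genes, 1 was called in periinfarct at 24 h and the 3 d sham median was 0.0809. The count past the adjusted p between core and periinfarct at 3 d, 5 as reported, was 0 with the pool as a fixed replicate block, 12 as a random one and 12 in the deposited table, 8 without the variation filter, 10 with normexp, 13 with percentile scaling and 0 with only the groups compared. That last fit, which has fewer residual degrees of freedom, gave 3 for core at 3 d against 24 h and 0 for periinfarct at 3 d. The fixed pool block was also fitted to only the groups compared. The pool blocks changed no call of a named member. The cause of these shifts was not tested.

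Leaving out each array in turn, the calls ranged from 0 to 1 in core and 1 to 3 in periinfarct at 24 h, 9 to 16 in core and 0 to 2 in periinfarct at 3 d (2 without periinfarct pool 11), 0 to 2 in sham at 24 h (2 without sham pool 8), 1 to 2 for core at 3 d against 24 h and 0 to 1 for the area by time difference. The sham medians ranged from 0.11 to 0.26 at 24 h and 0.0690 to 0.14 at 3 d, and that of the area by time difference from 0.39 to 0.67, the highest without core pool 11. The count between core and periinfarct at 3 d ranged from 1 to 14. Of the named members' values without an array, 796 kept their status as called or not called, 14 became called and 6 lost their call.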
